A study of Danio rerio with 12 samples.

Results

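Mitosis and chromosome segregation genes were followed in gill pools of adult zebrafish (Danio rerio), untreated or exposed to nanoparticles of CuO, ZnO or NiO. The members were chosen by gene symbol: cyclins A and B, cdk1, the cdc25 phosphatases, the Aurora and Polo-like kinases, survivin, the spindle checkpoint genes, centromere and kinetochore genes, mitotic kinesins, cytokinesis genes, securin and the anaphase-promoting complex, and condensin. Each member had to be detected well above background on the full set of 3 arrays in 1 group or more. Of 84 matching symbols in the current annotation, 59 had a probe that could be named, and all 59 passed that filter, out of 12616 named genes tested. The other 25 symbols, among them bub1, bub1ba, bub1bb, espl1, incenp, cenpe, cenpf and kif15, had no named probe and were not analysed here. On all 12 arrays 55 members were well above background, and the exceptions were ccna1, ccnb1l, cdc25d and ncapg. Of the 59, 3 match by symbol but have known functions outside mitosis (aurkaip1, mad2l2 and pttg1ipb), which leaves 56 other members.

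Each of the 12 samples was gill RNA pooled from 10 fish and hybridised to a one-colour Agilent array. There were 3 untreated control pools and 3 pools each after 96 h with CuO at 0.2 mg/L, ZnO at 4.8 mg/L or NiO at 17.5 mg/L, doses that the labels set at a fixed small share of each particle's median lethal concentration. All groups, controls included, went without food during the exposure. No strain or sex is given in the labels, and 10 fish enter 1 value, so the spread between single fish is not seen.

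In mitosis, Cdk1 bound to cyclin B drives a cell out of interphase, Aurora and Polo-like kinases build the spindle, and kinetochores tie each chromosome to spindle microtubules. The spindle checkpoint holds back the anaphase-promoting complex until every chromosome is attached, after which securin and cyclin B are destroyed, the sister chromatids part and the cell divides. In gill, dividing cells renew the epithelium that carries out gas exchange and ion uptake. Many of the same transcripts are also stored in growing fish oocytes, where cyclin B, Cdk1 and Mos control meiotic maturation.

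Some properties of the arrays bear on every result below. A level is the log2 of a signal divided by its array's 75th percentile, differences are log2, and errors are SDs of n = 3 pools or standard errors (SE) of the fit. Between 75.5% and 88.4% of spots were well above background on an array, and 0 spots were saturated. The deposited series table disagreed with the scanner files: 10 of its 12 columns held the array of another sample, and only those of control 1 and NiO 3 held their own. The scanner files, each linked to its sample, were used. With the table read by its column names, 0 members (and 0 genes at all) passed the test in any comparison, so every result rests on the scanner files' links. The 34 ionocyte and gill epithelium markers had medians of -1.04 on control 3, -0.33 on CuO 3 and 0.29 to 2.70 on the other 10 arrays, with 16 to 25 of them above the array's 75th percentile. Of single markers picked after their values were seen, the epithelial keratin krt5 lay between 3.32 and 4.53, and the proton pump subunit atp6v1aa between 2.00 and 4.41. The ionocyte regulator gcm2 was low (-6.79, -5.47 and -5.02) on control 3, CuO 3 and NiO 2, against -2.93 to 0.95 on the other arrays.

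Oocyte transcripts moved with the groups. Of 46 oocyte and early germ cell markers measured, 40 lay above the array's 75th percentile on each control, 35 did on NiO 1, and 1 to 3 did on each of the other 8 exposed arrays. The median level of the 46 was 3.27, 3.18 and 3.29 on the controls, 1.71 on NiO 1 and between -5.20 and -3.77 elsewhere. Of the genes on this list 39 fell and 1 (stm) rose under CuO, 42 and 1 under ZnO, and 38 and 1 under NiO. stm is known as an otolith matrix gene, so its rise is not to be read as that of an oocyte marker. All CuO and ZnO arrays were low and all controls high, so exposure and oocyte marker level cannot be told apart in those comparisons. With the marker mean of each array as a covariate, 0 members were called in any comparison (6 under CuO, 0 under ZnO and 6 under NiO at an unadjusted p under 0.05), and the median member difference went to -1.05, 0.01 and -0.88. The median SE of the members was then 0.91, 1.01 and 0.73, against 0.50 without the covariate. As the covariate largely follows the groups, this fit cannot tell marker level from exposure. Its counts have no share of all genes beside them, so they cannot be called particular to the members. In pooled tissue, fewer cells of a type and less RNA per cell cannot be told apart either.

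Mitosis genes were lower after each exposure. Under CuO 46 of the 59 members fell and 0 rose (limma, Benjamini-Hochberg adjusted p under 0.05 over all genes), when 13.6% of all genes tested fell and 11.5% rose. Under ZnO 33 fell and 0 rose, against 11.9% and 13.8% of all genes. Under NiO 43 fell and 0 rose, against 12% and 10.3%. The 3 comparisons share the control arrays, so their counts are not independent. The median member difference was -2.71 under CuO, -1.73 under ZnO and -2.03 under NiO, when the median of all genes was 0.42, 0.32 and 0.27. All 3 exposed arrays lay below all 3 controls for 50 members under CuO, 45 under ZnO and 50 under NiO (20.8%, 17.1% and 19.6% of all genes). Above all controls were 0, 1 and 1 members (27.4%, 25.6% and 23.1% of all genes), which were anapc16 under ZnO and anapc15 under NiO. At least 8-fold lower and called were 25 members under CuO, 13 under ZnO and 14 under NiO (4.28%, 4.45% and 3.13% of all genes). A test over the 4 groups together called 41 members (20.9% of all genes).

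These counts depend to different degrees on single arrays. The shares of all genes called with an array left out are not given here. A lower count can therefore not be called particular to the members. With each array left out in turn, the CuO count ran from 38 to 48, and 38 of the 46 CuO calls were made every time. The ZnO count ran from 19 to 42 and fell to 19 without control 3 and 20 without ZnO 2, and 17 of the 33 calls were made every time. The NiO count ran from 17 to 44, with 17 left without control 3, 41 without NiO 1, 29 without NiO 2 and 30 without control 1 or NiO 3, and 17 of the 43 calls were made every time. Fitted with the controls alone, the NiO arrays gave 20 calls. The count of the 4-group test was 22, 24 and 7 without control 1, 2 and 3. Leaving out NiO 2 added calls under ZnO for anapc4, anapc5, ccna2, cdk1, kif11, kif20a, kif23, mad2l2 and ttk (adjusted p = 0.00539 to 0.0472), whose differences were the same.

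**Figure D1:**
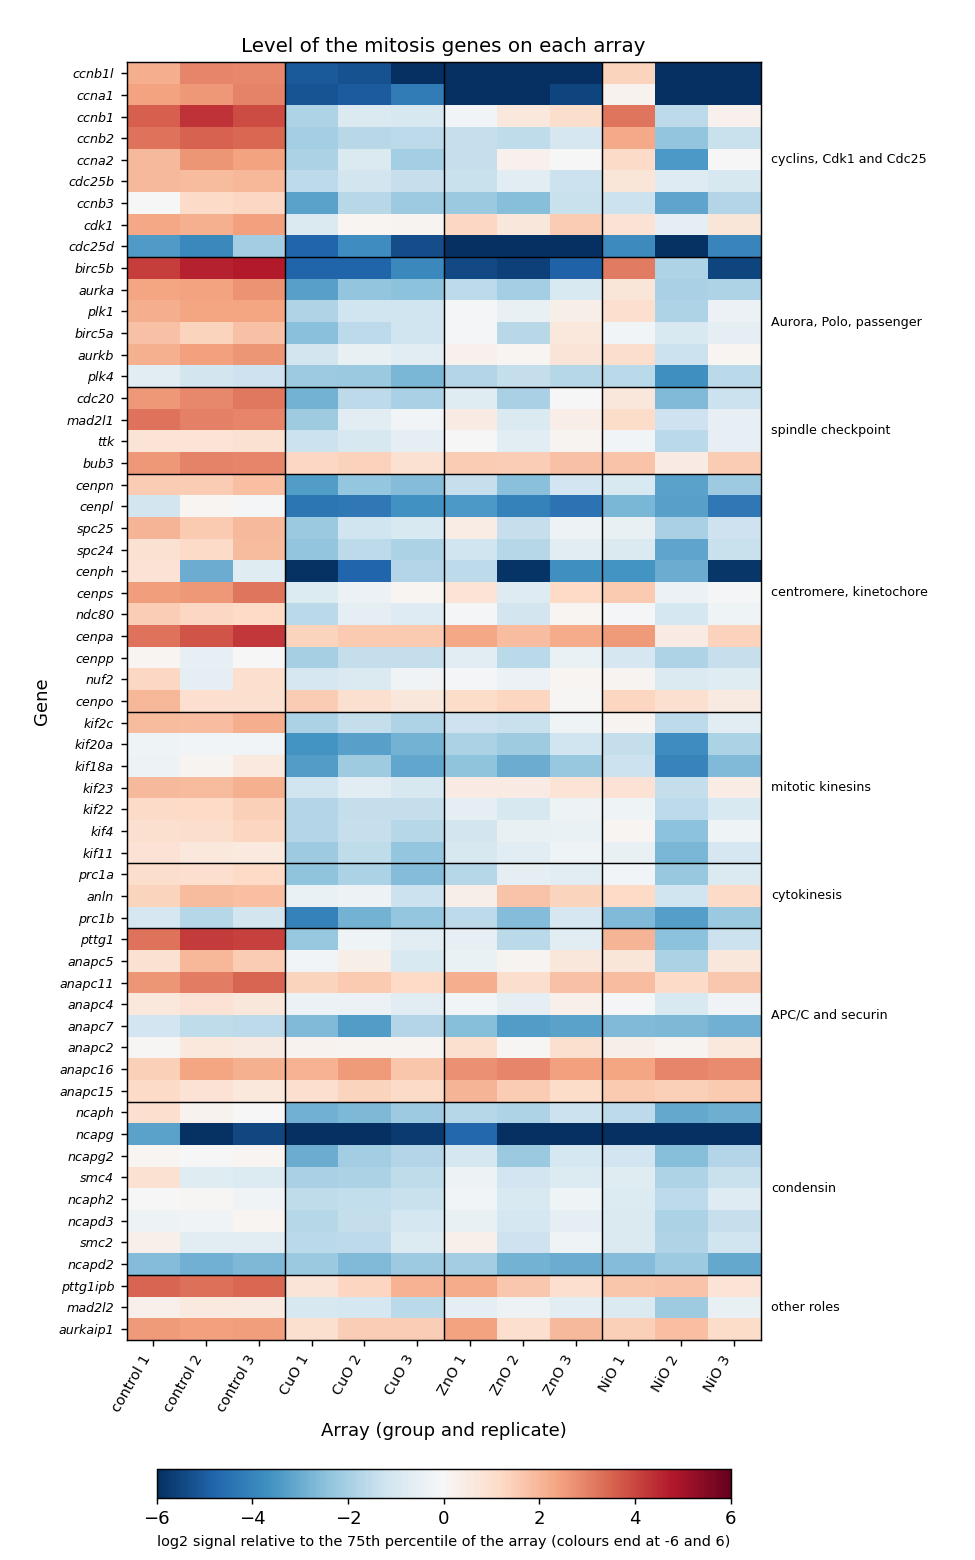
Level of the 59 members (rows, grouped by role) on the 12 arrays (columns), as log2 signal over the array's 75th percentile, with colours that end at -6 and 6. Each row is to be read across: the 3 control columns are the reddest for most genes, NiO 1 is redder than NiO 2 and NiO 3 for 48 of 59 members, and the rows of the anaphase-promoting complex change less than those of the cyclins and kinases.

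Among the drivers of mitotic entry the cyclin genes ccnb1l, ccna1, ccnb1 and ccnb2 differed most under CuO, whereas cdk1 differed by less than the median member in each exposure. Of 9 cyclin, Cdk1 and Cdc25 genes, 8 fell under CuO, 7 under ZnO and 8 under NiO. The level of ccnb1, a B-type cyclin that activates Cdk1, was 3.56, 4.35 and 3.91 in the controls, -1.86, -0.88 and -0.98 under CuO, -0.16, 0.65 and 1.07 under ZnO and 3.22, -1.58 and 0.24 under NiO. All exposed arrays lay below the lowest control, and NiO 1 came nearest to it. Its difference was -5.18 (SE 0.96, adjusted p = 0.00462) under CuO, -3.42 (SE 0.96, adjusted p = 0.0263) under ZnO and -3.31 (SE 0.96, adjusted p = 0.033) under NiO. For ccnb2, the other main mitotic B-type cyclin, the levels were 3.25, 3.54 and 3.47 in the controls, -2.04, -1.64 and -1.58 under CuO, -1.40, -1.54 and -1.001 under ZnO and 2.28, -2.36 and -1.33 under NiO, with no overlap. It differed by -5.17 (SE 0.91, adjusted p = 0.00399) under CuO, -4.73 (SE 0.91, adjusted p = 0.00631) under ZnO and -3.89 (SE 0.91, adjusted p = 0.0159) under NiO. cdk1, the kinase itself, was at 2.32, 2.15 and 2.44 in the controls, -0.86, 0.11 and 0.18 under CuO, 1.24, 0.67 and 1.51 under ZnO and 0.87, -0.52 and 0.71 under NiO. Every exposed array was below every control, and the CuO arrays were below the ZnO arrays. Its difference was -2.50 (SE 0.43, adjusted p = 0.00374) under CuO, -1.16 (SE 0.43, adjusted p = 0.0702) under ZnO and -1.95 (SE 0.43, adjusted p = 0.0127) under NiO, so the ZnO difference did not pass the test, though it did without NiO 2 (adjusted p = 0.0341).

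cdc25b, a phosphatase that switches Cdk1 on, was at 1.94, 1.88 and 1.97 in the controls, -1.57, -1.08 and -1.39 under CuO, -1.33, -0.66 and -1.28 under ZnO and 0.71, -0.80 and -0.97 under NiO. The controls were tight and all exposed arrays lay below them. Its difference was -3.28 (SE 0.42, adjusted p = 0.00135) under CuO, -3.02 (SE 0.42, adjusted p = 0.00211) under ZnO and -2.28 (SE 0.42, adjusted p = 0.00728) under NiO. These calls were made with any single array left out. ccnb3, a B-type cyclin conserved across animals, differed by -3.13 (SE 0.60), -2.84 (SE 0.60) and -2.86 (SE 0.60) under CuO, ZnO and NiO, and all 3 passed the test. The cyclin A gene of S and G2 phase, ccna2, differed by -3.94 (SE 0.98, adjusted p = 0.0162) under CuO, -2.70 (SE 0.98, adjusted p = 0.0666) under ZnO and -3.09 (SE 0.98, adjusted p = 0.0467) under NiO. Its other 2 probes differed by -4.38 to -3.52 and passed the test in all 3 exposures, and its ZnO difference passed when NiO 1 or 2 was left out (adjusted p = 0.0423 and 0.00717). Calls lost when single arrays were left out were, under CuO, ccna2 without control 3 or CuO 1 (differences -3.90 to -3.79, adjusted p = 0.0519 to 0.0573), under ZnO, ccnb1 without control 1, 2 or 3 or ZnO 1 or 2 (differences -3.61 to -3.08, adjusted p = 0.0572 to 0.0759), and under NiO, ccna2 without control 1, 2 or 3, CuO 1, 2 or 3, ZnO 2 or 3 or NiO 2 or 3 (differences -3.49 to -1.74, adjusted p = 0.0558 to 0.121), ccnb1 without control 1, 2 or 3 or NiO 2 or 3 (differences -3.50 to -2.21, adjusted p = 0.0667 to 0.0945), ccnb2 without control 3 or NiO 3 (differences -3.87 to -3.46, adjusted p = 0.0575 to 0.0577), ccnb3 without control 3 (difference -2.62, adjusted p = 0.0511) and cdk1 without control 3 (difference -1.88, adjusted p = 0.0535). Without NiO 1 the NiO differences were -4.05 for ccna2, -4.61 for ccnb1 and -5.26 for ccnb2, and without NiO 2 ccnb2 differed by -2.94. With slide as a block, the NiO calls of ccna2 (adjusted p = 0.0794) and ccnb1 (adjusted p = 0.0579) were lost.

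By each gene's brightest probe, the cyclin genes ccna1 and ccnb1l and the survivin gene birc5b had the largest falls of all members. They were high on the same arrays as the oocyte markers, the controls and NiO 1. ccna1, whose mouse counterpart is a germ cell cyclin, was at 2.41, 2.62 and 2.96 in the controls, -5.18, -4.98 and -4.20 under CuO, -6.27, -6.80 and -5.50 under ZnO and 0.21, -5.98 and -6.28 under NiO. ccnb1l, a cyclin B1-like gene, was at 2.16, 2.92 and 2.89 in the controls, -5.04, -5.24 and -6.45 under CuO, -8.72, -8.16 and -6.02 under ZnO and 1.32, -7.22 and -6.98 under NiO. birc5b, 1 of 2 zebrafish survivin genes, was at 4.15, 4.60 and 4.74 in the controls, -4.83, -4.80 and -3.89 under CuO, -5.41, -5.59 and -4.83 under ZnO and 3.13, -1.87 and -5.50 under NiO. For all 3 the array NiO 1 stood between the controls and the remaining exposed arrays. The differences of ccna1 were -7.45 (SE 1.37, adjusted p = 0.00462) under CuO, -8.85 (SE 1.37, adjusted p = 0.00292) under ZnO and -6.68 (SE 1.37, adjusted p = 0.0103) under NiO. Those of ccnb1l were -8.23 (SE 1.87, adjusted p = 0.0108) under CuO, -10.29 (SE 1.87, adjusted p = 0.00514) under ZnO and -6.95 (SE 1.87, adjusted p = 0.0256) under NiO. Those of birc5b were -9.00 (SE 1.60, adjusted p = 0.00407) under CuO, -9.78 (SE 1.60, adjusted p = 0.00363) under ZnO and -5.91 (SE 1.60, adjusted p = 0.0261) under NiO. Under NiO, calls were lost for ccnb1l without control 1, 2 or 3 or NiO 2 or 3 (differences -7.20 to -5.49, adjusted p = 0.059 to 0.0892) and birc5b without control 1, 2 or 3 or NiO 2 or 3 (differences -6.08 to -3.87, adjusted p = 0.0554 to 0.0821). Signal well above background was seen for ccna1 on 2 of 3 ZnO and 2 of 3 NiO arrays, and for ccnb1l on ZnO 3 and NiO 1 alone of these, so the ZnO and NiO differences of both genes rest in part on signals near background. Without NiO 1 the NiO difference was -8.18 for birc5b, and -8.79 for ccna1 with 1 of its 2 remaining arrays not well above background. Without that array ccnb1l had only a bound, at least 579-fold lower under NiO than in the controls, and without ZnO 3 it was at least 792-fold lower under ZnO. These bounds set a probe that is not well above background to the lowest level that was so on its array, or to its own where that is higher. Without NiO 2 and without NiO 3 ccna1 differed by -5.70 and -5.55.

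By their brightest probes related members differed less by value, and the difference between genes was not tested. For the cyclin B genes that order depends on the probe. Under CuO the 6 probes of ccnb1 differed by -8.73 to -5.18, its brightest the least, and the 4 of ccnb1l by -9.13 to -4.61. birc5a, the other survivin gene, was at 1.75, 1.33 and 1.77 in the controls, -2.49, -1.55 and -1.20 under CuO, -0.10, -1.68 and 0.65 under ZnO and -0.18, -0.93 and -0.56 under NiO. All exposed arrays were below the controls, and NiO 1 was the highest NiO array by a small margin only. birc5a differed by -3.36 (SE 0.55, adjusted p = 0.00324) under CuO, -1.99 (SE 0.55, adjusted p = 0.026) under ZnO and -2.17 (SE 0.55, adjusted p = 0.0212) under NiO. Its second probe differed by -0.53, -0.70 and -0.59 and passed no test over all probes, so the probes of birc5a disagree in size. Across the 9 exposed arrays birc5b was highest on NiO 1, whereas birc5a was highest on ZnO 3. Of the Cdc25 genes, cdc25d was at -3.39, -3.85 and -2.08 in the controls, -4.76, -3.75 and -5.31 under CuO, -7.17, -6.62 and -6.60 under ZnO and -3.84, -5.91 and -3.95 under NiO. The ZnO arrays alone were clear of the controls, with differences of -1.50 (SE 0.65, adjusted p = 0.111) under CuO, -3.69 (SE 0.65, adjusted p = 0.00454) under ZnO and -1.46 (SE 0.65, adjusted p = 0.132) under NiO. cdc25d was not well above background on ZnO 1 and ZnO 2, so its ZnO difference rests in part on signals near background. Its second probe differed by -1.003 under ZnO and passed no test over all probes, so the probes of cdc25d disagree in size. Leaving out single arrays lost the birc5a calls, under ZnO without control 1 or 3 or ZnO 2 (differences -1.93 to -1.34, adjusted p = 0.0685 to 0.0838) and under NiO without control 1 or 3 or NiO 2 or 3 (differences -2.17 to -1.99, adjusted p = 0.06 to 0.0743).

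**Figure D2:**
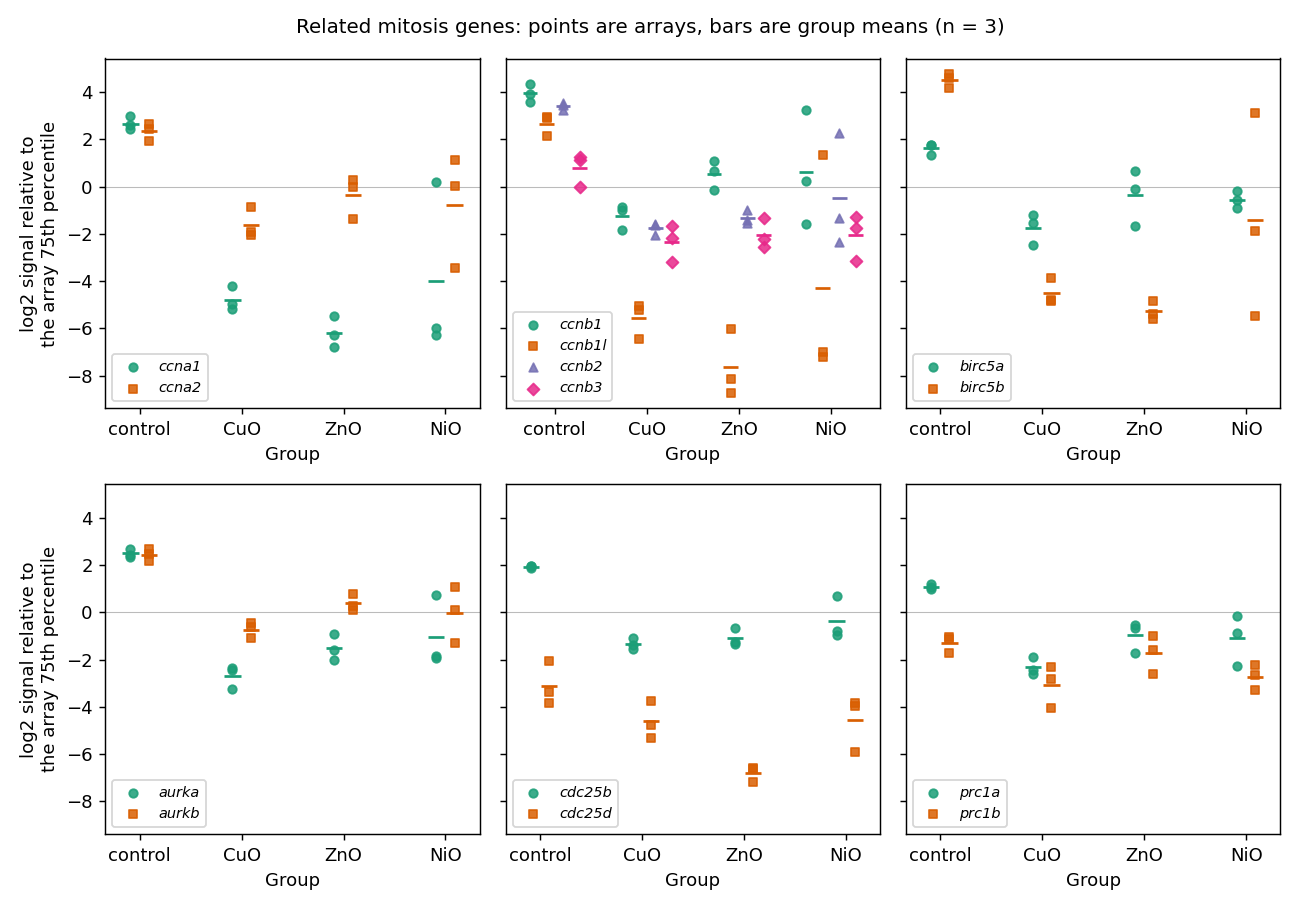
Levels (vertical axis, log2 signal relative to the array 75th percentile) of related members in the 4 groups, with 1 point per array and a bar at the mean of n = 3. Levels of different genes come from different probes and are to be compared only across groups. By the probes shown ccna1, ccnb1l and birc5b drop farther than ccna2, ccnb1 and birc5a, an order that other probes of ccnb1 and ccnb1l do not keep. Each of ccna1, ccnb1l and birc5b has 1 high point under NiO, which is NiO 1.

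Most mitotic kinases fell. Of 6 Aurora, Polo and chromosomal passenger genes, 5 fell in each exposure, and plk4 did not pass the test in any. aurka, the Aurora kinase of the spindle poles, was at 2.35, 2.42 and 2.69 in the controls, -3.26, -2.38 and -2.44 under CuO, -1.58, -2.03 and -0.92 under ZnO and 0.71, -1.93 and -1.87 under NiO. No exposed array reached the controls, and NiO 1 was the highest of the exposed. The difference was -5.18 (SE 0.64, adjusted p = 0.00129) under CuO, -4.00 (SE 0.64, adjusted p = 0.00342) under ZnO and -3.52 (SE 0.64, adjusted p = 0.00714) under NiO, and these calls were made with any single array left out. plk1, the Polo-like kinase active from mitotic entry to cytokinesis, was at 2.19, 2.38 and 2.38 in the controls, -1.82, -1.19 and -1.22 under CuO, -0.07, -0.45 and 0.37 under ZnO and 1.01, -1.87 and -0.34 under NiO. The groups did not overlap the controls. plk1 differed by -3.72 (SE 0.59, adjusted p = 0.00301) under CuO, -2.37 (SE 0.59, adjusted p = 0.0176) under ZnO and -2.71 (SE 0.59, adjusted p = 0.0125) under NiO. aurkb, the catalytic subunit of the chromosomal passenger complex, differed by -3.16 (SE 0.51, adjusted p = 0.00312) under CuO, -2.04 (SE 0.51, adjusted p = 0.0176) under ZnO and -2.48 (SE 0.51, adjusted p = 0.0105) under NiO. plk4, the kinase of centriole duplication, was lower by value only, with -1.40 (SE 0.50, adjusted p = 0.066) under CuO, -0.65 (SE 0.50, adjusted p = 0.369) under ZnO and -1.30 (SE 0.50, adjusted p = 0.0886) under NiO, and passed under CuO when NiO 2 was left out (adjusted p = 0.0059). Under ZnO calls were lost for plk1 without control 3 or ZnO 2 (differences -2.34 to -2.17, adjusted p = 0.0589 to 0.0621) and aurkb without control 3 or ZnO 2 (differences -1.93 to -1.90, adjusted p = 0.0603 to 0.0657). NiO differences without NiO 1 were -4.39 for aurka and -3.42 for plk1, and without NiO 2 they were -1.98 for plk1 and -1.85 for aurkb.

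All 4 spindle checkpoint genes fell under CuO and NiO, and 3 under ZnO. cdc20, the activator of the anaphase-promoting complex that the checkpoint restrains, was at 2.597, 2.89 and 3.15 in the controls, -2.82, -1.57 and -1.94 under CuO, -0.73, -1.94 and 0.03 under ZnO and 0.69, -2.64 and -1.28 under NiO. Every exposed array was below every control. cdc20 differed by -4.99 (SE 0.77, adjusted p = 0.00267) under CuO, -3.76 (SE 0.77, adjusted p = 0.00802) under ZnO and -3.95 (SE 0.77, adjusted p = 0.00895) under NiO. mad2l1, the Mad2 protein that binds Cdc20 at unattached kinetochores, was at 3.26, 3.02 and 2.95 in the controls, -2.12, -0.69 and -0.15 under CuO, 0.49, -0.84 and 0.41 under ZnO and 1.11, -1.26 and -0.50 under NiO, again with no overlap. Its difference was -4.06 (SE 0.66, adjusted p = 0.00314) under CuO, -3.05 (SE 0.66, adjusted p = 0.01) under ZnO and -3.29 (SE 0.66, adjusted p = 0.00981) under NiO, and no single array decided these calls of cdc20 and mad2l1. bub3, a kinetochore-bound checkpoint protein, and ttk, the Mps1 kinase that starts the signal, moved less. bub3 differed by -1.66 (SE 0.33, adjusted p = 0.00666) under CuO, -1.26 (SE 0.33, adjusted p = 0.0215) under ZnO and -1.59 (SE 0.33, adjusted p = 0.0109) under NiO. ttk differed by -1.77 (SE 0.40, adjusted p = 0.0107) under CuO, -1.003 (SE 0.40, adjusted p = 0.09) under ZnO and -1.61 (SE 0.40, adjusted p = 0.0197) under NiO, and its ZnO difference passed without NiO 2 (adjusted p = 0.0366). Left-out arrays ended the ZnO call of bub3 without control 2 or 3 or ZnO 1 or 2 (differences -1.23 to -1.19, adjusted p = 0.0505 to 0.0752) and the NiO call of ttk without control 1 or 3 (differences -1.63 to -1.56, adjusted p = 0.0502 to 0.0706). Without NiO 1 the NiO differences of cdc20 and mad2l1 were -4.84 and -3.95, and without NiO 2 that of cdc20 was -3.17.

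Among centromere and kinetochore genes, 8 of 11 fell under CuO, 7 under ZnO and 8 under NiO. cenpn, which ties the constitutive centromere network to the centromeric nucleosome, was at 1.51, 1.52 and 1.79 in the controls, -3.35, -2.33 and -2.58 under CuO, -1.38, -2.53 and -1.13 under ZnO and -0.92, -3.21 and -2.20 under NiO. The exposed and control arrays were well apart. It differed by -4.36 (SE 0.57, adjusted p = 0.00146) under CuO, -3.29 (SE 0.57, adjusted p = 0.00432) under ZnO and -3.72 (SE 0.57, adjusted p = 0.0047) under NiO. Its partner in that network, cenpl, was at -1.09, 0.11 and -0.08 in the controls, -4.33, -4.29 and -3.65 under CuO, -3.43, -4.05 and -4.42 under ZnO and -2.74, -3.24 and -4.29 under NiO. Here NiO 1 was only slightly above NiO 2. Its difference was -3.74 (SE 0.47, adjusted p = 0.00131) under CuO, -3.61 (SE 0.47, adjusted p = 0.00193) under ZnO and -3.07 (SE 0.47, adjusted p = 0.00492) under NiO. The cenpn and cenpl calls were made with any single array left out, and the NiO difference of cenpn was -4.31 without NiO 1. The outer kinetochore genes spc24 and spc25, subunits of the Ndc80 complex that grips microtubules, differed under CuO by -3.27 (SE 0.57, adjusted p = 0.00391) and -3.31 (SE 0.55, adjusted p = 0.00324). Under NiO they differed by -3.11 (SE 0.57, adjusted p = 0.00732) and -3.09 (SE 0.55, adjusted p = 0.00671), and spc24 by -2.41 without NiO 2. Under ZnO their differences of -2.50 and -2.28 passed the test, but calls were lost for spc24 without control 3 (difference -2.22, adjusted p = 0.0535) and spc25 without control 3 or ZnO 2 (differences -2.24 to -1.79, adjusted p = 0.0513 to 0.0524).

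cenpa, the histone H3 variant that marks the centromere, had mean levels (± SD, n = 3) of 3.74 ± 0.50, 1.51 ± 0.14, 2.12 ± 0.24 and 1.48 ± 1.03 for controls, CuO, ZnO and NiO. It lay below the controls on all exposed arrays. cenpa differed by -2.24 (SE 0.47, adjusted p = 0.00782) under CuO, -1.62 (SE 0.47, adjusted p = 0.0298) under ZnO and -2.26 (SE 0.47, adjusted p = 0.0105) under NiO, and the ZnO call was lost for cenpa without control 2 or 3 or ZnO 2 or 3 (differences -1.67 to -1.38, adjusted p = 0.0573 to 0.11). The further Ndc80 subunit ndc80 differed under CuO by -2.31 (SE 0.41, adjusted p = 0.00418), and nuf2, its binding partner, by -1.26 (SE 0.49, adjusted p = 0.0828). ndc80 also passed the test under ZnO (-1.68, adjusted p = 0.0165) and NiO (-1.77, adjusted p = 0.0154). Its ZnO call was lost without control 1 or ZnO 2, and its NiO call without control 3 or NiO 2. nuf2 was at 1.25, -0.57 and 1.02 in the controls, where control 2 stood apart from the rest. Without control 2 nuf2 differed by -1.83 under CuO (adjusted p = 0.0153) and -1.61 under NiO (adjusted p = 0.027), and both then passed. The other 2 probes of nuf2 differed by -1.88 and -2.43 under CuO and passed the test over all probes there. cenph, a further network subunit, was at 0.89, -2.99 and -0.73 in the controls, -5.93, -4.75 and -1.75 under CuO, -1.56, -5.86 and -3.67 under ZnO and -3.60, -2.96 and -5.83 under NiO. It was the most scattered of the kinetochore genes, its groups overlapped, and it passed no test, with -3.20 (SE 1.43, adjusted p = 0.121) under CuO. cenpo, also of the network, did not pass by its brightest probe, with -0.27 (SE 0.42, adjusted p = 0.649) under CuO, -0.50 (SE 0.42, adjusted p = 0.403) under ZnO and -0.39 (SE 0.42, adjusted p = 0.534) under NiO. Its second probe differed by -3.72, -3.46 and -3.10 under CuO, NiO and ZnO and passed the test over all probes each time, so the 2 probes of cenpo disagree. cenps, a small histone-fold protein of the network, was at 2.5, 2.59 and 3.22 in the controls, -0.83, -0.35 and 0.10 under CuO, 0.81, -0.79 and 1.22 under ZnO and 1.58, -0.33 and -0.10 under NiO, without overlap. It differed by -3.13 (SE 0.61, adjusted p = 0.0059) under CuO, -2.36 (SE 0.61, adjusted p = 0.0201) under ZnO and -2.39 (SE 0.61, adjusted p = 0.0215) under NiO. cenpp, a partner of cenpo in the network, differed by -1.49 (SE 0.38, adjusted p = 0.0183) under CuO, -0.76 (SE 0.38, adjusted p = 0.169) under ZnO and -1.28 (SE 0.38, adjusted p = 0.0367) under NiO. Calls were lost under CuO for cenpp without control 1 or 3 or CuO 1 (differences -1.42 to -1.30, adjusted p = 0.0598 to 0.0758), under ZnO for cenps without control 3 or ZnO 2 (differences -2.13 to -1.76, adjusted p = 0.0662 to 0.0772), and under NiO for cenpp without control 1 or 3, CuO 2 or NiO 2 or 3 (differences -1.30 to -1.05, adjusted p = 0.0536 to 0.114) and cenps without control 3 or NiO 2 or 3 (differences -2.16 to -2.03, adjusted p = 0.0709 to 0.0827). Without NiO 1 cenps differed by -2.98 under NiO.

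All 7 mitotic kinesins fell under CuO and under NiO, and 4 under ZnO. kif2c, which shortens microtubules to correct faulty attachments, was at 1.92, 1.85 and 2.18 in the controls, -1.89, -1.45 and -1.83 under CuO, -1.24, -1.34 and -0.24 under ZnO and 0.17, -1.59 and -0.69 under NiO. The 3 control values spanned less than the distance to any exposed array. kif2c differed by -3.71 (SE 0.45, adjusted p = 0.00124) under CuO, -2.93 (SE 0.45, adjusted p = 0.00273) under ZnO and -2.69 (SE 0.45, adjusted p = 0.00595) under NiO. kif22, a chromosome-arm motor, differed by -2.79 (SE 0.34, adjusted p = 0.00129) under CuO, -1.86 (SE 0.34, adjusted p = 0.0054) under ZnO and -2.16 (SE 0.34, adjusted p = 0.00544) under NiO. Calls of kif2c and kif22 were made with any single array left out. kif20a, needed for the midzone and cytokinesis, was at -0.26, -0.17 and -0.17 in the controls, -3.61, -3.25 and -2.84 under CuO, -1.88, -2.15 and -1.21 under ZnO and -1.43, -3.71 and -1.89 under NiO. The CuO arrays were below all ZnO arrays. It differed by -3.03 (SE 0.53, adjusted p = 0.0039) under CuO, -1.54 (SE 0.53, adjusted p = 0.055) under ZnO and -2.14 (SE 0.53, adjusted p = 0.0189) under NiO, and under ZnO it passed without NiO 1 or 2 (adjusted p = 0.0422 and 0.00922). The second probe of kif20a differed by -1.03, -0.56 and -1.20 under CuO, ZnO and NiO, so its probes disagree in size. Over all probes 1 of the 2 passed the test under CuO and under NiO. kif18a, which damps chromosome movement at the metaphase plate, differed by -3.01 (SE 0.62, adjusted p = 0.00733) under CuO. kif11, the motor that pushes spindle poles apart, kif4, a motor of chromosome arms and midzone, and kif23, a centralspindlin motor, had CuO differences of -2.71 (SE 0.52), -2.71 (SE 0.57) and -2.93 (SE 0.50). The 3 probes of kif4 disagree, as a second one passed the test over all probes under CuO and NiO (-2.17 and -1.98) while the third stood at 0.20, 0.18 and 0.11 under CuO, ZnO and NiO with no call. Of the 40 members with several probes, 14 had both called and uncalled probes under CuO, 9 under ZnO and 13 under NiO, and 0 had calls in opposite directions. Under NiO calls were lost for kif20a without control 3 (difference -2.13, adjusted p = 0.0655), kif11 without control 1 or 3 (differences -2.15 to -2.01, adjusted p = 0.0557 to 0.0603), kif4 without control 1, 2 or 3 or CuO 2 (differences -2.02 to -1.88, adjusted p = 0.05 to 0.105), kif23 without control 1 or 3 (differences -2.05 to -1.97, adjusted p = 0.0504 to 0.0701) and kif18a without control 3 (difference -2.56, adjusted p = 0.0575). NiO differences without NiO 2 were -1.46 for kif20a, -1.44 for kif11, -1.16 for kif4, -1.33 for kif23 and -2.11 for kif18a, and that of kif18a was -3.47 without NiO 1. The ZnO call of kif18a was lost without control 3 (-2.47, adjusted p = 0.0525). kif4 lost its ZnO call under most single omissions (differences -1.87 to -1.50, adjusted p = 0.0541 to 0.131, without control 1, 2 or 3, CuO 1, 2 or 3, ZnO 1, 2 or 3 or NiO 3), and with slide as a block its ZnO and NiO calls were lost (adjusted p = 0.0689 and 0.0519).

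Of 3 cytokinesis genes, 3 fell under CuO and 1 (prc1a) under ZnO and NiO. prc1a, which bundles the midzone microtubules, was at 1.08, 0.99 and 1.20 in the controls, -2.43, -1.89 and -2.61 under CuO, -1.73, -0.56 and -0.67 under ZnO and -0.17, -2.28 and -0.88 under NiO. It did not overlap the controls in any exposure. prc1a differed by -3.40 (SE 0.51, adjusted p = 0.0024) under CuO, -2.07 (SE 0.51, adjusted p = 0.0168) under ZnO and -2.20 (SE 0.51, adjusted p = 0.0156) under NiO. anln, anillin of the contractile ring, was at 1.36, 1.90 and 1.82 in the controls, -0.42, -0.30 and -1.29 under CuO, 0.36, 1.72 and 1.33 under ZnO and 1.19, -1.21 and 1.16 under NiO. The CuO arrays and NiO 2 were low, while ZnO overlapped the controls. Its difference was -2.36 (SE 0.63, adjusted p = 0.0219) under CuO, -0.55 (SE 0.63, adjusted p = 0.545) under ZnO and -1.31 (SE 0.63, adjusted p = 0.161) under NiO. The 6 probes of anln disagree in size. They differed by -2.71 to -0.36 under CuO, where 2 passed the test over all probes. Under ZnO they differed by -2.46 to 0.06, and 0 passed. prc1b, the paralog of prc1a, differed by -1.78 (SE 0.53, adjusted p = 0.0349) under CuO. Omitting arrays lost the CuO calls of anln without control 2 or 3 or CuO 1 or 3 (differences -2.49 to -2.05, adjusted p = 0.0533 to 0.0673) and prc1b without control 1 or 3 or CuO 1 or 2 (differences -1.90 to -1.29, adjusted p = 0.0679 to 0.128), the ZnO call of prc1a without control 3 (difference -2.02, adjusted p = 0.0592) and the NiO call of prc1a without control 3 (difference -2.14, adjusted p = 0.0602). Without NiO 2 the NiO difference of prc1a was -1.61.

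**Figure D3:**
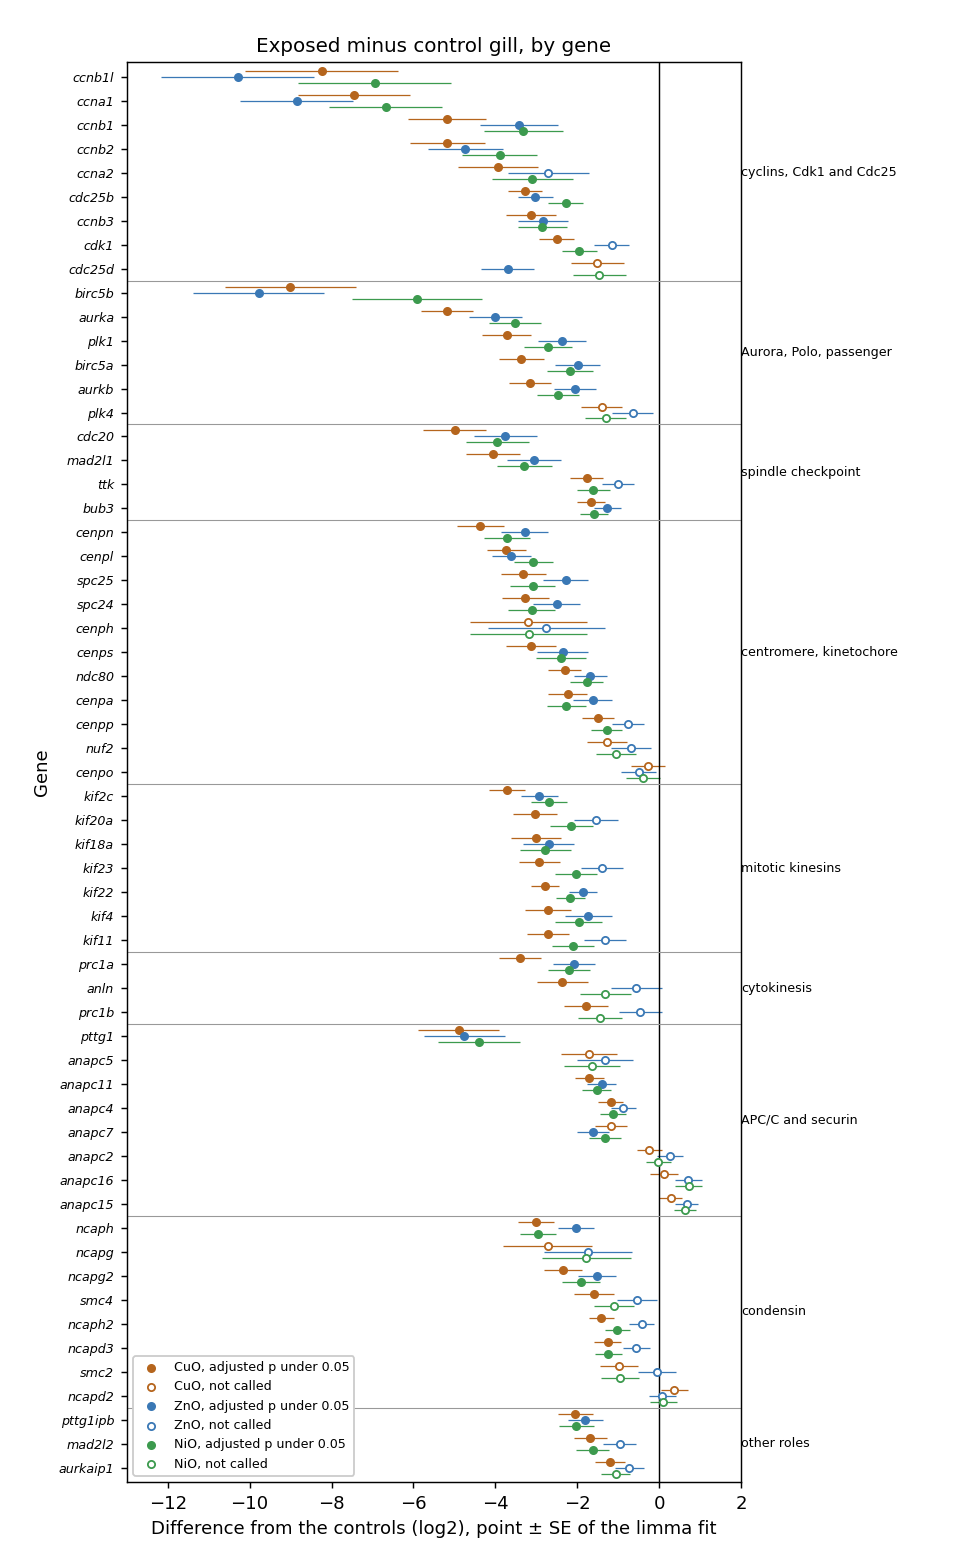
Difference from the controls (horizontal axis, log2) of the 59 members after each exposure, as point and SE of the fit, with filled points for an adjusted p under 0.05. Most points lie left of 0 by 1 to 5 units, ccnb1l, ccna1 and birc5b lie farthest left, and anapc2, anapc15, anapc16 and ncapd2 lie about 0. Each point is the brightest probe of its gene, and the other probes of ncapd2, not shown, were lower in every exposure.

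The anaphase-promoting complex did not move as a block. Of 8 genes, its subunits and securin, 3 fell under CuO, 3 under ZnO and 4 under NiO. Securin, pttg1, which holds separase inactive until anaphase, was at 3.26, 4.17 and 4.08 in the controls, -2.30, -0.24 and -0.62 under CuO, -0.50, -1.63 and -0.62 under ZnO and 2.06, -2.44 and -1.29 under NiO. It was highest of the exposed on NiO 1 and below the controls on every array. Its difference was -4.90 (SE 0.99, adjusted p = 0.00695) under CuO, -4.76 (SE 0.99, adjusted p = 0.00848) under ZnO and -4.40 (SE 0.99, adjusted p = 0.014) under NiO. anapc11, the RING subunit that binds the ubiquitin-conjugating enzyme, was at 2.63, 3.08 and 3.49 in the controls, 1.32, 1.58 and 1.18 under CuO, 2.18, 1.07 and 1.76 under ZnO and 1.85, 1.13 and 1.63 under NiO. anapc11 differed by -1.71 (SE 0.36, adjusted p = 0.00773) under CuO, -1.40 (SE 0.36, adjusted p = 0.0187) under ZnO and -1.53 (SE 0.36, adjusted p = 0.0154) under NiO. anapc7 and anapc4, structural subunits, differed by -1.18 (SE 0.39, adjusted p = 0.0511) under CuO, -1.61 (SE 0.39, adjusted p = 0.0154) under ZnO and -1.32 (SE 0.39, adjusted p = 0.0361) under NiO and by -1.18 (SE 0.31, adjusted p = 0.0202) under CuO, -0.87 (SE 0.31, adjusted p = 0.0623) under ZnO and -1.13 (SE 0.31, adjusted p = 0.0278) under NiO. Of the remaining subunits, anapc2, the cullin next to anapc11, was at 0.05, 0.65 and 0.53 in the controls, 0.19, 0.18 and 0.15 under CuO, 0.98, 0.07 and 0.98 under ZnO and 0.37, 0.17 and 0.62 under NiO. The groups overlapped throughout. It differed by -0.24 (SE 0.31, adjusted p = 0.582) under CuO, 0.27 (SE 0.31, adjusted p = 0.547) under ZnO and -0.02 (SE 0.31, adjusted p = 0.967) under NiO. anapc16 and anapc15, small subunits, lay higher by value without passing the test, at 0.12, 0.72 and 0.72 and at 0.28, 0.68 and 0.63 under CuO, ZnO and NiO. anapc5 differed by -1.72 (SE 0.68, adjusted p = 0.0894) under CuO, -1.32 (SE 0.68, adjusted p = 0.179) under ZnO and -1.64 (SE 0.68, adjusted p = 0.111) under NiO.

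Single arrays decided several of these calls. Under CuO the call was lost for anapc4 without control 2 or 3 or CuO 1 or 3 (differences -1.24 to -1.08, adjusted p = 0.0533 to 0.0575), and pttg1 differed by -4.27 without CuO 1. Under ZnO calls were lost for anapc11 without control 3 or ZnO 2 (differences -1.18 to -1.10, adjusted p = 0.0633 to 0.0783) and anapc7 without control 1 or ZnO 2 (differences -1.49 to -1.46, adjusted p = 0.0522 to 0.0553). Under NiO calls were lost for pttg1 without control 3 or NiO 3 (differences -4.28 to -4.03, adjusted p = 0.0503 to 0.0553), anapc11 without control 3 or NiO 2 (differences -1.33 to -1.32, adjusted p = 0.0503 to 0.0686), anapc7 without control 1, 2 or 3, CuO 1 or NiO 1, 2 or 3 (differences -1.41 to -1.20, adjusted p = 0.0523 to 0.105) and anapc4 without control 1, 2 or 3 or NiO 2 or 3 (differences -1.22 to -0.89, adjusted p = 0.0579 to 0.0829). pttg1 differed under NiO by -5.71 without NiO 1 and by -3.45 without NiO 2. Without NiO 2 in the fit anapc5, by its brightest probe, passed the test under CuO (-1.72, adjusted p = 0.018) and ZnO (-1.32, adjusted p = 0.0472). With the mean over its probes anapc7 lost its ZnO and NiO calls, at -0.67 (adjusted p = 0.286) and -0.64 (adjusted p = 0.315). Its second probe differed by 0.19, 0.27 and 0.05 under CuO, ZnO and NiO, so the probes of anapc7 disagree in sign.

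Condensin, the ring complex that compacts mitotic chromosomes, fell in part: 5 of 8 genes under CuO, 2 under ZnO and 4 under NiO. Of condensin I, ncaph was at 1.01, 0.22 and 0.04 in the controls, -2.87, -2.69 and -2.19 under CuO, -1.71, -1.85 and -1.27 under ZnO and -1.57, -3.09 and -2.93 under NiO. All exposed arrays lay below all controls. ncaph differed by -3.01 (SE 0.44, adjusted p = 0.00215) under CuO, -2.03 (SE 0.44, adjusted p = 0.00974) under ZnO and -2.96 (SE 0.44, adjusted p = 0.00435) under NiO, and these calls were made with any single array left out. The condensin II counterpart ncaph2 differed by -1.41 (SE 0.30, adjusted p = 0.00865) under CuO, -0.43 (SE 0.30, adjusted p = 0.321) under ZnO and -1.02 (SE 0.30, adjusted p = 0.0364) under NiO. ncapg2, also of condensin II, differed by -2.35 (SE 0.46, adjusted p = 0.00602) under CuO, -1.52 (SE 0.46, adjusted p = 0.0365) under ZnO and -1.91 (SE 0.46, adjusted p = 0.0177) under NiO. The shared core subunits were smc4, at -1.58 (SE 0.49, adjusted p = 0.0385) under CuO, and smc2, at -0.99 (SE 0.46, adjusted p = 0.139). ncapd3 of condensin II differed by -1.26 (SE 0.32, adjusted p = 0.019) under CuO. Its condensin I counterpart ncapd2 was at -2.59, -2.89 and -2.69 in the controls, -2.22, -2.64 and -2.20 under CuO, -2.09, -2.86 and -2.99 under ZnO and -2.61, -2.19 and -3.08 under NiO by its brightest probe. The groups overlapped, with 0.37, 0.08 and 0.10 and no call. Its other 3 probes were lower in every exposure, by value from -2.82 to -1.64, and 2 of the 3 passed the test over all probes under NiO, so the probes of ncapd2 disagree. ncapg of condensin I was not well above background on any NiO array and was at least 3.03-fold lower there than in the controls, with no call (adjusted p = 0.264). Its CuO difference passed without CuO 3 (adjusted p = 0.0418), the only CuO array on which it was well above background. That call therefore rests on signals near background, with only a bound of at least 4.54-fold lower. The probe used for ncapg passed the detection filter through the controls alone. Lower values in the exposed groups were favoured by that choice, so the bounds of ncapg are no independent sign of a fall.

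Omitting arrays lost the CuO calls of smc4 without control 1, CuO 1, 2 or 3, ZnO 3 or NiO 3 (differences -1.70 to -1.01, adjusted p = 0.0525 to 0.113) and ncapd3 without control 3 or CuO 1 or 2 (differences -1.23 to -1.11, adjusted p = 0.058 to 0.0778). The mean over its probes also ended the smc4 call (-1.41, adjusted p = 0.107). Under ZnO the call was lost for ncapg2 without control 1, 2 or 3, CuO 2, ZnO 2 or NiO 3 (differences -1.56 to -1.13, adjusted p = 0.0508 to 0.124). Under NiO calls were lost for ncapg2 without control 3 or NiO 2 (differences -1.89 to -1.54, adjusted p = 0.0561 to 0.0629) and ncaph2 without control 1, 2 or 3, CuO 1 or 2 or NiO 1, 2 or 3 (differences -1.17 to -0.76, adjusted p = 0.0509 to 0.104). ncapd3 differed by -1.24 under NiO (adjusted p = 0.0234), a call lost without control 3 or NiO 2 or 3 (adjusted p up to 0.0893).

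The 3 genes with mitotic names and other known functions also moved. pttg1ipb, a membrane protein named for binding securin, was at 3.50, 3.32 and 3.46 in the controls, 0.76, 1.28 and 2.097 under CuO, 2.24, 1.63 and 1.01 under ZnO and 1.65, 1.72 and 0.84 under NiO. It differed by -2.05 (SE 0.42, adjusted p = 0.00752) under CuO, -1.80 (SE 0.42, adjusted p = 0.0136) under ZnO and -2.02 (SE 0.42, adjusted p = 0.0109) under NiO, calls that were made with any single array left out. mad2l2, known in human cells as a subunit of translesion DNA polymerase zeta, differed by -1.68 (SE 0.40, adjusted p = 0.0135) under CuO, which was lost with the mean over its probes (-0.62, adjusted p = 0.664). Under NiO mad2l2 differed by -1.62 (adjusted p = 0.0193), a call lost without control 3 (adjusted p = 0.0694). aurkaip1, a mitochondrial ribosome protein in human cells, differed by -1.20 (SE 0.36, adjusted p = 0.0364) under CuO, and that call was lost for aurkaip1 without control 1, 2 or 3, CuO 1, 2 or 3 or NiO 1 (differences -1.29 to -1.04, adjusted p = 0.0515 to 0.127) and with slide as a block (adjusted p = 0.0616). Without these 3 genes 43 of 56 members fell under CuO, 32 under ZnO and 41 under NiO.

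No member differed between exposures by the test: 0 were called in each of the 3 pairs, and 0% of all 12616 genes were. At an unadjusted p under 0.05 there were 12 members between CuO and ZnO, 4 between CuO and NiO and 2 between ZnO and NiO, when 9.92%, 6.21% and 4.94% of all genes passed, so the last 2 counts are near the background. The CuO mean was the lowest of the 3 exposures for 51 of 59 members (36% of all genes), and the ZnO mean the highest for 44 (39.9% of all genes). All CuO arrays lay below all ZnO arrays for 21 members (9.96% of all genes) and above them for 3 (6.29%), which were birc5b, ccna1 and cdc25d. For CuO and NiO these counts were 4 below and 0 above (5.88% and 7.26% of all genes), and for ZnO and NiO 1 below and 0 above (3.01% and 5.38%). By each gene's brightest probe anln differed most among those lower under CuO, by -1.81 with a 95% interval of -3.21 to -0.41 (adjusted p = 0.418). For kif23 the difference between CuO and ZnO was -1.53 (-2.65 to -0.41), for kif20a -1.49 (-2.66 to -0.31) and for cdk1 -1.33 (-2.29 to -0.38). Against the controls the probes of anln, kif23 and kif20a disagree in size, so these values hold for the probe used. In the other direction cdc25d, not well above background on ZnO 1 and ZnO 2, was higher under CuO by 2.19 (0.75 to 3.63, adjusted p = 0.369). Its probes also disagree in size against the controls, so this value too holds for the probe used. The intervals leave room for differences of over 2 log2 units in most of these genes. The doses differed between particles, so the values stand side by side and are no ranking of the metals.

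**Figure D4:**
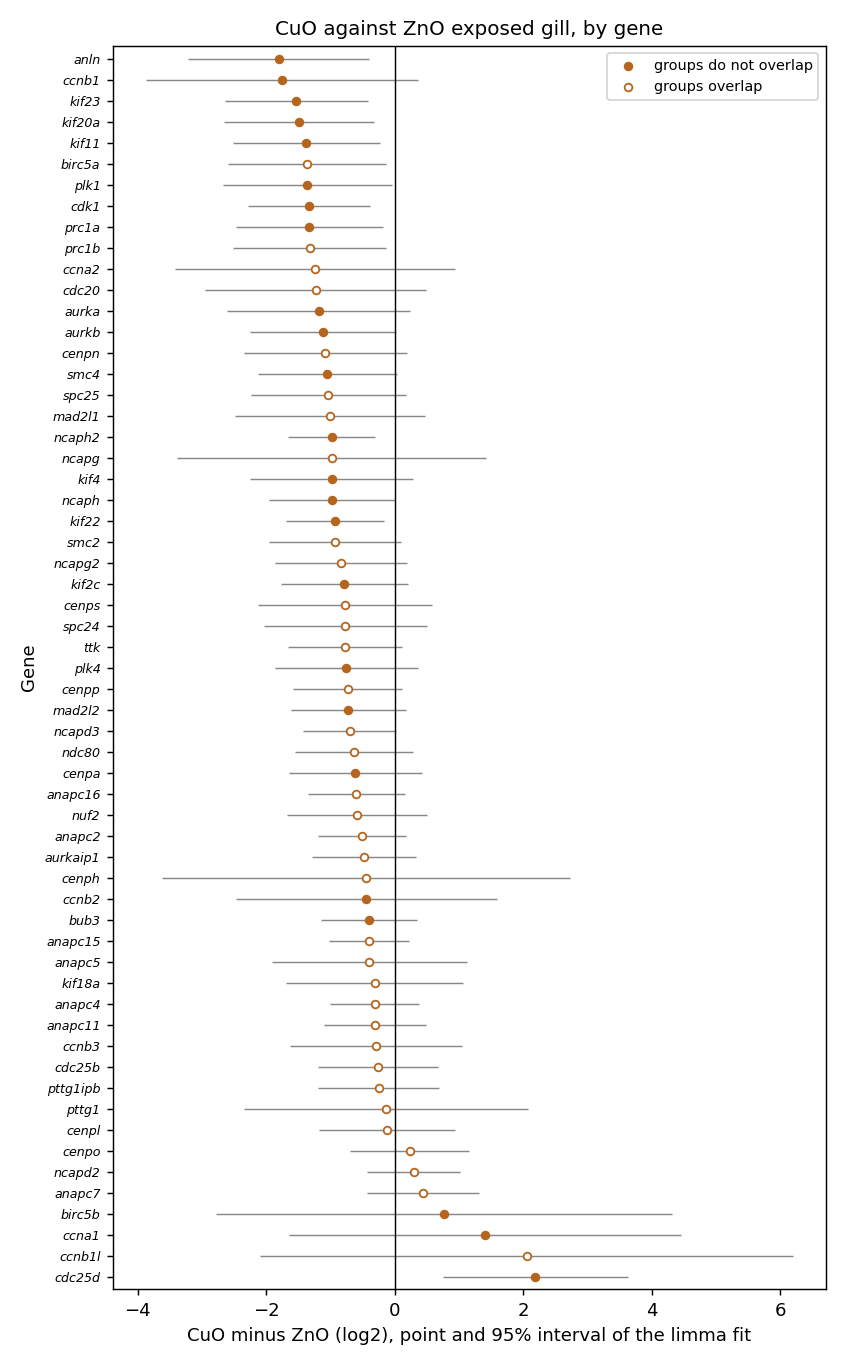
CuO minus ZnO (horizontal axis, log2) for each of the 59 members, with the 95% interval of the fit and filled points where the 3 arrays of one exposure do not overlap the 3 of the other. Most points lie left of 0, anln at -1.81 is farthest left, and cdc25d at 2.19 is farthest right.

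Within NiO the arrays were uneven. NiO 1 was higher than both other NiO arrays for 48 of 59 members and the highest of all 9 exposed arrays for 26, and it was still below all 3 controls for 51. The median member level was 0.12 on NiO 1, -1.87 on NiO 2 and -0.89 on NiO 3, against 1.21 to 1.43 on the controls. The median of all genes was -0.33, -0.68 and -0.36 on NiO 1, 2 and 3. The median excess of NiO 1 over the mean of the other NiO arrays was 1.09. Of members measured on all NiO arrays it was largest for birc5b (6.82), ccnb2 (4.12), pttg1 (3.93) and ccnb1 (3.89). For ccnb1l and ccna1, not well above background on NiO 3 and, for ccnb1l, on NiO 2, it was at least 7.84 and 6.33. NiO 2 was the lowest of the 9 exposed arrays for 22 members, and CuO 1 for 23. Shares of all genes were not counted for these array orders, so the counts cannot be called particular to the members. Without NiO 1 the median NiO difference was -2.46 and 41 members were called, all of them among the 43 called with it.

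Arrays with the same replicate number shared a slide and a scan, per the file headers, and the groups were at fixed positions on each slide. Within slides 1, 2 and 3 the median member difference was -3.08, -2.20 and -2.67 under CuO, -1.60, -2.01 and -1.63 under ZnO, and -1.17, -2.78 and -1.87 under NiO. Between 53 and 57 of the 59 members were lower in each of these 9 differences. The median of all genes lay between 0.08 and 0.46 in them, and the share of all genes that were lower was not counted. Between exposures, CuO minus ZnO had medians of -1.17, -0.20 and -0.83 on slides 1, 2 and 3, of 1 sign. The sign differed between slides for CuO minus NiO (-1.61, 0.47 and -0.42) and for ZnO minus NiO (-0.25, 0.60 and 0.63).

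Other genes of the cell cycle were taken from lists, and their counts are to be set against the shares of all genes given above. Of 59 further mitosis genes, 31 fell and 0 rose under CuO, 27 fell and 4 rose under ZnO, and 29 fell and 2 rose under NiO, with medians of -1.81, -1.43 and -1.39. bora, an activator of Aurora A, differed by -5.77 (SE 0.85), -4.54 (SE 0.85) and -4.64 (SE 0.85). The centrosome kinase nek2 differed by -4.52 (SE 0.73), -4.29 (SE 0.73) and -3.86 (SE 0.73), and oip5, which helps load Cenpa, by -4.22 (SE 0.73), -4.07 (SE 0.73) and -3.55 (SE 0.73), under CuO, ZnO and NiO in that order, and all 9 passed the test. Some members of the list went the other way. lmnb2, a nuclear lamin, was higher by 1.76 (SE 0.50, adjusted p = 0.0279) under ZnO and 1.68 (SE 0.50, adjusted p = 0.0367) under NiO. nipblb, the cohesin loader, was higher under ZnO by 0.90 (SE 0.29, adjusted p = 0.0458), and rad21a, a cohesin subunit, by 1.00 (SE 0.30, adjusted p = 0.0334). ckap2l, a mitotic spindle protein, was also higher under ZnO, by 1.52 (SE 0.48, adjusted p = 0.0413).

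Of 51 genes of the G1/S transition and DNA replication, 27 fell and 1 rose under CuO, 22 fell and 4 rose under ZnO, and 25 fell and 0 rose under NiO, with medians of -1.52, -1.21 and -1.32. orc6, of the origin recognition complex, differed by -5.51 (SE 0.84), -4.53 (SE 0.84) and -3.92 (SE 0.84) under CuO, ZnO and NiO, and ccne1, a cyclin that starts S phase, by -4.56 (SE 0.65), -4.81 (SE 0.65) and -3.48 (SE 0.65). The nucleotide salvage enzyme tk1 differed by -4.33 (SE 0.75), -4.51 (SE 0.84) and -3.90 (SE 0.75), the ZnO value resting on the arrays left after outlier spots were dropped. These 9 differences passed the test. Against these, mcm6, a subunit of the replicative helicase, was at -2.97, -0.95 and -1.81 in the controls, -0.84, -0.44 and -0.13 under CuO, 0.25, 0.40 and 0.58 under ZnO and -0.31, -1.32 and 0.24 under NiO, and was higher under ZnO by 2.32 (SE 0.52, adjusted p = 0.0116). mcm3, of the same helicase, was higher under ZnO by 2.27 (SE 0.61, adjusted p = 0.0223), and e2f7, a repressor of S phase genes, by 2.63 (SE 0.62, adjusted p = 0.0135). cdkn1ba, an inhibitor of cyclin-dependent kinases, was higher under CuO by 1.75 (SE 0.46, adjusted p = 0.0199). Of 15 meiosis genes 6 fell and 0 rose in each exposure, with medians of -0.11, -0.94 and -0.15. mos, the kinase that holds mature oocytes in meiosis, was at 3.25, 3.98 and 3.90 in the controls, -1.52, -1.99 and -1.81 under CuO, -2.95, -1.55 and -2.06 under ZnO and 2.45, -3.48 and -2.11 under NiO, and spdya, an activator of cyclin-dependent kinases in meiotic cells, differed by -4.19 (SE 0.69), -5.49 (SE 0.69) and -3.92 (SE 0.69). Like birc5b, mos was high on the controls and NiO 1 and low on the other 8 arrays. Of 76 ribosomal protein genes, 0 were called in any exposure (3, 0 and 1 at an unadjusted p under 0.05 under CuO, ZnO and NiO), with medians of 0.30, 0.30 and 0.15.

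**Figure D5:**
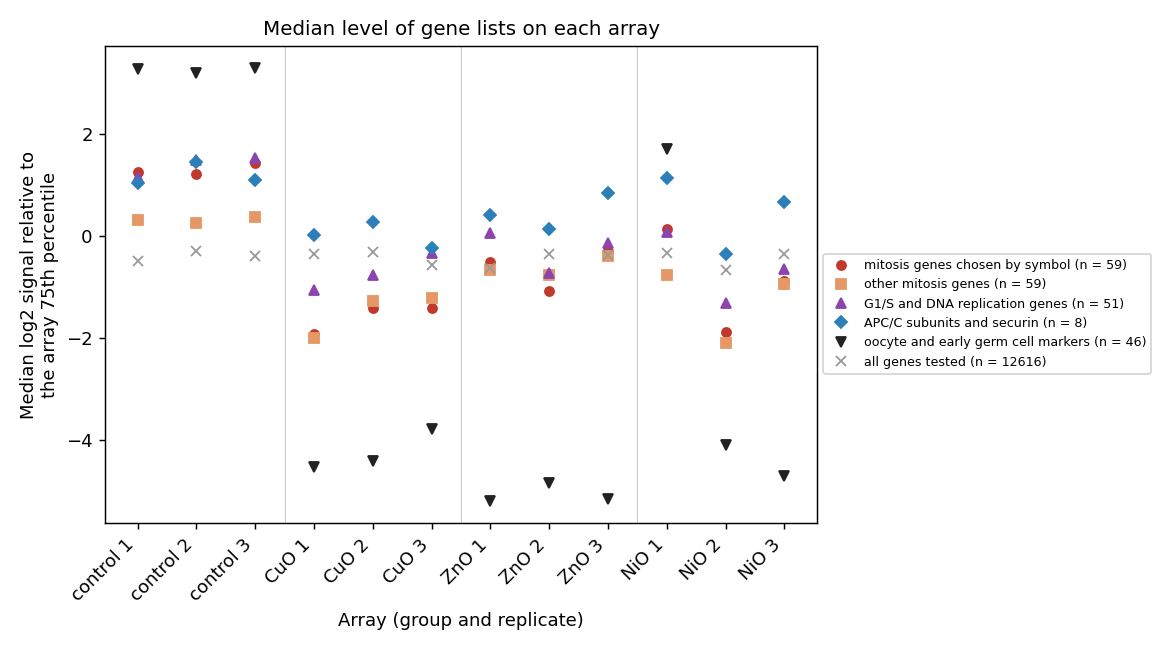
Median level (vertical axis, log2 signal relative to the array 75th percentile) of 6 gene sets on each of the 12 arrays, with 1 symbol per set. Each set is to be followed across arrays: the members are at 1.21 to 1.43 on the controls and at -1.92 to 0.12 on the exposed arrays, oocyte markers are high on the controls and NiO 1 and at -5.20 to -3.77 on the other exposed arrays, and the median of all genes stays between -0.68 and -0.31.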

How the data were processed

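Gill RNA of 12 pools was hybridised to one-colour Agilent arrays and deposited as scanner files. The values used are the processed signal intensity of each spot, which the authors made with Agilent Feature Extraction 11.5.1.1, per the file headers. MAS5 is also listed in the submitters' processing notes, with no role given. Of 43603 probes 26094 were named, through the array's accessions and RefSeq's GRCz12tu table, for 13443 genes. Outlier spots and control spots were left out, the array's 75th percentile was subtracted on the log2 scale, probes well above background on all 3 arrays of a group were kept, and the probe with the highest mean level stood for a gene, leaving 12616. Symbols are those of the table, and the 59 members lie on 24 chromosomes. Members and lists were chosen with earlier results of these data known.

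One limma 3.58.1 fit (R 4.3.3) of the 4 group means gave each comparison, with Benjamini-Hochberg adjusted p under 0.05 over all genes. It was tested on simulated data. Replicates are separate pools per the labels. In each role up to 4 called members with the largest mean difference were named, with related pairs, uncalled members of high level, members known only as a bound and up to 4 genes a list and direction. cdk1, cenpa, cenpp, cenps, kif11, kif23, kif4, ndc80, krt5, atp6v1aa and gcm2 were named after their values were seen. Same-numbered arrays share a slide per the file headers, and their deviations correlated by -0.58 to 0.48 (18 pairs), against -0.63 to 0.64 (36 pairs) for other numbers. The alternatives were background correction, scaling, filter, probe choice, weights, slide block, single arrays left out, the oocyte covariate and the deposited series table, an intensity table of the authors whose linear values matched another sample's array within 0.1% in 10 columns. For normexp the median spot signal was used, as chosen after seeing the data.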

Additional observations from a re-analysis of the deposited data

How the results depend on the processing

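The counts of members called against the controls were 45 to 54 for CuO, 32 to 38 for ZnO and 40 to 44 for NiO over normexp background correction, quantile normalization, ribosomal protein centring, the percentile over detected probes, no filter on dim probes, the mean of a gene's probes, array weights and the slide block. With slide, and so replicate number, as a block they were 45, 32 and 40, and 37 in the 4-group test, and 5 member calls were lost, those of aurkaip1 under CuO, kif4 under ZnO, and ccna2, ccnb1 and kif4 under NiO. With array weights 1 NiO call was of a higher level (anapc15, 0.76, adjusted p = 0.0309), and 2 members were called between CuO and ZnO. With only the groups compared in the fit, NiO gave 20. With the oocyte marker mean as a covariate, and with the series table read by its column names, 0 members were called in each comparison and in the 4-group test. Leaving out 1 array gave 38 to 48 for CuO, 19 to 42 for ZnO, 17 to 44 for NiO, 7 to 43 in the 4-group test and 0 to 0 between exposures. Ribosomal protein centring put the median difference of all genes at 0.12, 0.02 and 0.10 under CuO, ZnO and NiO, against 0.42, 0.32 and 0.27, and members were lower relative to either. The precision is limited by 3 pools a group and by probes near background (ccna1, ccnb1l, cdc25d and ncapg). No shares of all genes stand beside the counts of these settings, so changes in them cannot be called particular to the members. The cause of the shifts was not tested. Sign changes are counted from here on only for member differences called in the main fit or in the alternative fit. Uncalled differences turned too and are not listed. Under ZnO, for example, 29 members lay below 0 with the oocyte covariate, against 55 without it. With the mean of a gene's probes the sign of 1 such difference turned, that of ncapd2 under NiO, to -1.88. With the oocyte covariate the sign of 18 member differences turned, with the values under CuO ccna1 0.41 and ccnb1l 1.71; under ZnO aurkb 0.22, birc5b 0.10, ccna1 0.12, ccnb1 1.97, ccnb1l 1.06, ccnb2 0.91, cenpa 0.55, cenps 0.35, kif4 0.16, ncapg2 0.020, ncaph 0.095, plk1 0.54 and pttg1 0.74; under NiO birc5b 0.49, ccnb1 0.18 and ccnb1l 0.41. With the series table by its column names 51 turned, with the values under CuO anapc11 0.16, anapc4 0.12, anln 0.53, aurka 1.12, aurkb 0.61, birc5a 0.18, birc5b 3.04, bub3 0.26, ccna1 2.32, ccna2 1.46, ccnb1 1.75, ccnb1l 3.57, ccnb2 1.49, ccnb3 1.25, cdc20 1.02, cdc25b 0.86, cdk1 0.17, cenpa 0.37, cenpl 0.67, cenpn 0.52, cenps 0.48, kif11 0.35, kif18a 0.98, kif20a 0.33, kif22 0.27, kif23 0.32, kif2c 0.63, kif4 0.58, mad2l1 0.64, ncapg2 0.24, ndc80 0.28, plk1 0.67, prc1a 0.70, pttg1 1.87, spc24 0.50 and ttk 0.089; under ZnO aurka 0.44, aurkb 0.079, birc5a 0.032, birc5b 1.15, ccnb1 0.51, ccnb3 0.35, cdc25b 0.53, cdc25d 0.27, cenpl 0.53, kif22 0.057, kif2c 0.19, kif4 0.11, prc1a 0.51 and pttg1ipb 0.13; under NiO ccnb3 0.10.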

Other observations

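Of 34 epithelial and ionocyte genes, 6 rose under CuO, 10 under ZnO and 10 under NiO, when 11.5%, 13.8% and 10.3% of all genes rose, and 0 fell. The others did not pass the test. tp63, the transcription factor of basal epithelial progenitors, was at 0.24, -0.42 and -0.61 in the controls, 1.39, 1.33 and 0.43 under CuO, 1.25, 1.62 and 1.04 under ZnO and 1.34, 2.02 and 1.62 under NiO. It differed by 1.31 (SE 0.36, adjusted p = 0.024) under CuO, 1.57 (SE 0.36, adjusted p = 0.0122) under ZnO and 1.92 (SE 0.36, adjusted p = 0.0075) under NiO, with every exposed array above every control. The keratin krt1-c5 differed by 2.195 (SE 0.33), 2.06 (SE 0.33) and 1.93 (SE 0.33), and the sodium pump subunit atp1a1a.5 by 4.10 (SE 0.94, adjusted p = 0.0148) under NiO. All these levels are relative to each array's 75th percentile, and the median of all genes was itself higher by 0.42, 0.32 and 0.27.

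Of 13 lymphocyte markers 3 rose under CuO (cd8a, pax5 and zap70), 2 under ZnO (cd8a and zap70) and 0 under NiO, where 0 also passed at an unadjusted p under 0.05 (limma), and 0 fell. cd8a, the co-receptor of cytotoxic T cells, was at -5.36, -5.25 and -4.98 in the controls, -2.14, -2.44 and -3.19 under CuO, -2.93, -3.72 and -3.98 under ZnO and -5.40, -6.27 and -5.98 under NiO. The CuO and ZnO arrays lay above all controls and the NiO arrays below them. Of 17 erythrocyte markers 2 rose under CuO, 1 rose under ZnO and 1 fell under NiO. Over all genes 11.5%, 13.8% and 10.3% rose and 13.6%, 11.9% and 12% fell under CuO, ZnO and NiO. Most counts of lymphocyte, erythrocyte, gonad and eye markers are thus near or below the background. Of 17 somatic gonad markers 3 fell and 2 rose under CuO and under ZnO, and 1 fell and 1 rose under NiO. Among them hsd3b2, a steroid-making enzyme, differed by -7.37 (SE 1.29), -6.88 (SE 1.29) and -5.64 (SE 1.29). The list did not fall as a whole: its median difference was 0.81, 0.37 and 0.63, against 0.42, 0.32 and 0.27 for all genes. Of the other called genes lhcgr and cyp17a1 had negative mean differences over the exposures, and inhbaa, rspo1 and nr5a1a positive ones. Of 29 eye markers 1 (arr3b) rose under CuO and 0 were called under ZnO and NiO (0 and 1 at an unadjusted p under 0.05), while their median was between -5.65 and -5.30 on control 3, CuO 3, ZnO 1 and NiO 2 and between 0.30 and 2.12 on the other 8 arrays.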
